A study of Rattus norvegicus with 23 samples.

Results

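The proteins that carry electrons from food to oxygen and make ATP in the mitochondrial inner membrane are mostly encoded in the nucleus. Their genes were taken from a table of RNA-sequencing counts of rat gastrocnemius, a calf muscle, by symbol: the Nduf genes of complex I, Sdha to Sdhd of complex II, the Uqcr genes and Cyc1 of complex III, the Cox4 to Cox8 genes of complex IV and the Atp5 genes of complex V, without pseudogene symbols. This gave 85 of the 18903 named entries, with 37 in complex I, 4 in complex II, 10 in complex III, 17 in complex IV and 17 in complex V. They stood for 82 symbols, since Cox6b1, Uqcrb and Ndufv3 each had an entry at 2 positions. The choice goes by symbol alone, so Ndufa4, known as a subunit of complex IV, stands in complex I, and Atp5s and Atp5sl, which are not established subunits of complex V, stand there. Ndufa4l2, Ndufa10l1 and Cox7a2l, named as like Ndufa4, Ndufa10 and Cox7a2, are also counted as subunit genes by symbol only. The samples were 6 Male HFHS, 6 Male Chow, 6 Female HFHS and 5 Female Chow Wistar rats, with 1 library per rat, where HFHS is a high-fat, high-sucrose diet. Diets were given for 14 weeks starting at 4 weeks of age, and the rats were housed at thermoneutrality and fasted before tissue was taken. Females had their ovaries removed at 12 weeks of age and drank water with estradiol, except for some that were sham-operated, and the labels do not say which female had which operation. Sex can therefore not be told apart from operation and estradiol treatment in any comparison of males with females.

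Complex I takes electrons from NADH and complex II takes them from succinate, both hand them to ubiquinone, complex III passes them to cytochrome c, and complex IV gives them to oxygen. Complex V, the ATP synthase, uses the proton gradient that complexes I, III and IV build. Complex II is wholly nuclear-encoded and is also an enzyme of the tricarboxylic acid cycle. The other complexes contain a few subunits encoded in mitochondrial DNA. The 13 symbols of these subunits were looked up and matched 0 entries of the counts. Several subunits exist as paired isoforms, such as the heart and muscle form Cox6a2 and the widely expressed form Cox6a1, whose balance differs between tissues.

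Libraries held between 21152241 and 51305339 counts, of which the subunit genes took between 2.6996% and 3.73%. Skeletal muscle markers summed to between 219800 and 322500 CPM (counts scaled to library size) in every library, as muscle should. Markers of hepatocytes summed to 71.8 to 116 CPM in males, 71.6 to 564 CPM in Female HFHS and 346 to 652 CPM in Female Chow. The median log2 difference of these markers by diet in females, HFHS minus chow, was -1.35, with 0 of 32 tested called. Slow fibre genes varied more than any complex did, between 841 and 25210 CPM in males and between 604 and 19170 CPM in females, with Male Chow rat 111 and Female Chow rat 205 far below the others. For 3 females the diet in the sample title is opposite to the diet in the column code (205, 224 and 225), and groups follow the codes. For the other rats titles and codes agree, and the direction of every diet comparison rests on the codes. A heat map in the publication can be read as heading the male diet groups the other way round, which could not be settled here. If so, the male diet differences would change sign, and the male group in each comparison of the sexes on 1 diet would be the other one.

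The summed levels of the complexes overlapped between the 4 groups, except that complex II was higher in every Male HFHS rat than in every Female Chow rat. Complex I summed to 8014 ± 523 CPM in Male HFHS, 8134 ± 494 CPM in Male Chow, 7956 ± 531 CPM in Female HFHS and 7863 ± 529 CPM in Female Chow (SD, n = 6, 6, 6 and 5). Complex V, the group with the highest sum, reached 12840 ± 582 CPM in Male HFHS, 12940 ± 680 CPM in Male Chow, 12460 ± 820 CPM in Female HFHS and 12380 ± 377 CPM in Female Chow. Complex IV summed to 5127 ± 394 CPM in Male HFHS, 5387 ± 455 CPM in Male Chow, 5456 ± 365 CPM in Female HFHS and 5265 ± 433 CPM in Female Chow. Groups overlapped in these complexes, and the range within a group was wider than the distance between group means. Complex II came nearest to a separation by sex. It summed to between 2058 and 2281 CPM in Male HFHS and between 1910 and 2301 CPM in Male Chow, against 1773 to 2107 CPM in Female HFHS and 1953 to 2013 CPM in Female Chow. The Female HFHS and Male Chow rats overlapped with both. The sum of complex II includes Sdha, with means of 849 CPM in Male HFHS, 834 in Male Chow, 735 in Female HFHS and 723.5 in Female Chow. It is therefore not independent of the result for Sdha given below. Complex III summed to 3654 to 4341 CPM in Male HFHS, 3573 to 4263 CPM in Male Chow, 3474 to 4218 CPM in Female HFHS and 3567 to 4179 CPM in Female Chow. Over all 85 entries the lowest sum was in Female HFHS rat 202 (28330 CPM) and the next in Male Chow rat 111 (29310 CPM).

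**Figure D1:**
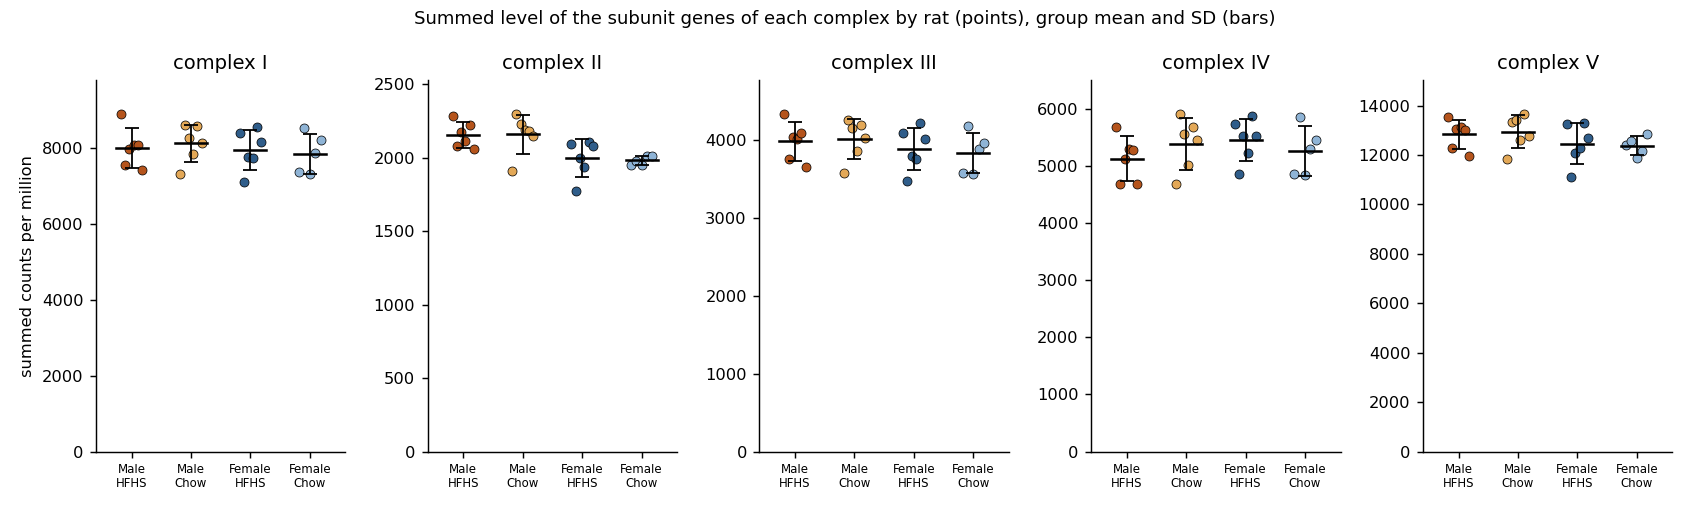
Summed CPM of the subunit genes of complexes I to V (y axis, from 0) in each rat by group (x axis), with the group mean and SD as bars. The groups overlap in every complex, apart from Male HFHS and Female Chow in complex II, where the means of the male groups, 2155 and 2159 CPM, lie above those of the female groups, 1999 and 1982 CPM.

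The subunit genes had a smaller median spread within groups than all tested genes, which were not matched to them by level. The SD of the log2 level within groups had a median of 0.13 over the 83 subunit genes that passed the filter on low counts, against 0.20 over all 13365 genes that passed it. Members with few counts varied more, such as Cox6b2 with an SD of 0.81 and Atp5f1 with 0.36. Counts were concentrated in few genes: Atp5b and Atp5a1, the catalytic beta and the alpha subunit of ATP synthase, held 14.1% and 9.41% of all subunit counts, Cox6a2 held 3.80% and Sdha 2.46%. These shares were not divided by transcript length. Other members with many counts were Atp5c1, the gamma subunit (635 CPM on average), Ndufv1, which binds NADH (534 CPM), in complex I, Uqcrc1 (735 CPM), Cyc1 (714 CPM) and Uqcrc2 (606 CPM) in complex III, Cox4i1 (853 CPM) and Cox5a (482 CPM) in complex IV, and Sdhd (505 CPM) and Sdhc (408 CPM), the membrane anchors of complex II.

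Comparing the sexes over both diets asked which subunit genes differ between male and female muscle. A gene was called where its adjusted p (edgeR quasi-likelihood test with Benjamini-Hochberg adjustment over 13365 genes) was under 0.05. Of 83 subunit genes, 3 were higher in males, where 3.8% of all tested genes were, and 1 was lower in males, where 5.17% were. The higher genes were Sdha, Ndufs1 and Ndufa10, and the lower gene was Cox6a2. The median log2 difference, males minus females, was 0.02 over the subunit genes and -0.00030 over all genes. By complex the median was 0.00100 in complex I, 0.08 in complex II, 0.03 in complex III, 0.01 in complex IV and 0.03 in complex V. Of the 83 subunit genes, 51 were positive. The mean log2 level of the tested subunit genes had an SD of 0.09 between rats within groups. The signs of single genes are therefore not independent of each other.

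Sdha encodes the flavoprotein that oxidizes succinate in complex II. Its level ranged from 804 to 913 CPM with a median of 845 CPM in Male HFHS and from 778 to 899 CPM with a median of 829.3 CPM in Male Chow. In Female HFHS it ranged from 661 to 799 CPM with a median of 737 CPM, and in Female Chow the values were 750, 624, 786, 722 and 735 CPM. The sexes overlapped only at the edge, where Female HFHS rat 201 and Female Chow rat 214 lay above the lowest male. The log2 difference by sex was 0.21 ± 0.04 (standard error; edgeR adjusted p = 0.00405). The other subunits of complex II had positive log2 differences that were not called: Sdhb, the iron-sulfur subunit, 0.12 (adjusted p = 0.332), Sdhc 0.04 (0.632) and Sdhd 0.04 (0.630), from the same fit.

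Ndufs1, the core subunit of complex I that holds several of its iron-sulfur clusters, ranged from 538 to 629 CPM with a median of 589 CPM in Male HFHS and from 522 to 625.4 CPM with a median of 586 CPM in Male Chow. In Female HFHS it ranged from 477 to 585 CPM with a median of 528 CPM, and in Female Chow the values were 552, 424, 529, 530 and 506 CPM. The sexes overlapped, and the log2 difference was 0.18 ± 0.05 (edgeR adjusted p = 0.0189). Ndufa10, an accessory subunit of complex I, ranged from 270 to 310 CPM with a median of 286 CPM in Male HFHS and from 260 to 307 CPM with a median of 285 CPM in Male Chow. In Female HFHS it ranged from 232 to 280 CPM with a median of 262 CPM, and in Female Chow the values were 254, 253, 262, 272.1 and 255 CPM. Here too the sexes overlapped, with a log2 difference of 0.15 ± 0.04 (edgeR adjusted p = 0.0162). Complex I as a whole was split between the signs, with 19 of its 36 tested genes positive and 17 negative.

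Cox6a2 encodes the heart and muscle isoform of subunit VIa of cytochrome c oxidase. It ranged from 917 to 1215 CPM with a median of 1084 CPM in Male HFHS and from 1149 to 1333 CPM with a median of 1217 CPM in Male Chow. In Female HFHS it ranged from 1220 to 1467 CPM with a median of 1309 CPM, and in Female Chow the values were 1195, 1345, 1199, 1214 and 1270 CPM. Male HFHS rats were the low group, and the other 3 groups overlapped broadly. By sex over both diets the log2 difference was -0.16 ± 0.05 (edgeR adjusted p = 0.0285), a call that was lost without any 1 of 4 rats (Female Chow 213, with adjusted p = 0.0646, Female Chow 229, 0.0601, Female HFHS 209, 0.0559, and Male HFHS 106, 0.0501) and without the 3 females whose labels conflict (0.0573).

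**Figure D2:**
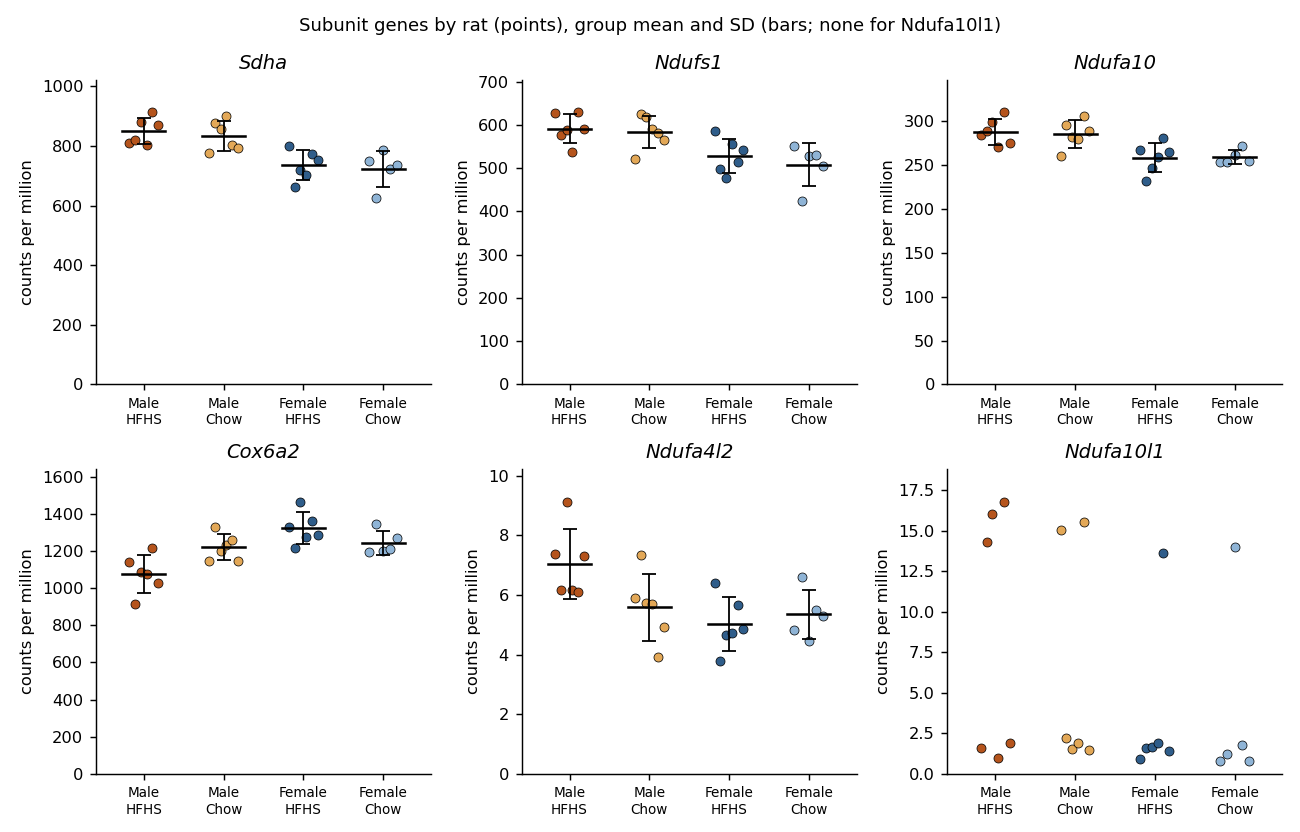
CPM (y axis, from 0) of Sdha, Ndufs1, Ndufa10, Cox6a2, Ndufa4l2 and Ndufa10l1 in each rat by group (x axis), with the group mean and SD as bars except for Ndufa10l1. Sdha, Ndufs1 and Ndufa10 have higher means in both male groups, Cox6a2 is lowest in Male HFHS (917 to 1215 CPM), and Ndufa10l1 has 7 rats at 13.6 to 16.8 CPM and 16 rats at 0.77 to 2.21 CPM.

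Several subunits missed the threshold. Ndufa12, an accessory subunit of complex I, had a log2 difference of 0.18 (adjusted p = 0.0747), Uqcrc2, a core protein of complex III, 0.11 (0.0949) and Atp5g3, a gene of the membrane-embedded c ring of ATP synthase, 0.15 (0.141). In complex IV the second-smallest p was that of Cox6a1, with 0.11 (0.271). Without Male Chow rat 111 the count of called subunits was 7, with these 3 genes added, and without rats 111 and 205, which have the lowest slow fibre sums, it was 6. In complex III the redox subunits Uqcrfs1, the Rieske protein, and Cyc1, cytochrome c1, had log2 differences of 0.12 (adjusted p = 0.120) and 0.11 (0.146), while the small subunit Uqcr10 had -0.13 (0.143). Atp5b and Atp5a1 had 0.08 (0.238) and 0.09 (0.202). In all, 13 subunit genes had an unadjusted p under 0.05, which is 15.7% of them, against 23.5% of all tested genes. When the mean hepatocyte marker level entered the fit as a covariate, the number of subunits called by sex was 0, while the log2 differences of the 4 called genes kept their signs and were 0.30 for Sdha, 0.26 for Ndufs1, 0.22 for Ndufa10 and -0.17 for Cox6a2. With this covariate the median standard error of a subunit rose from 0.06 to 0.10. Of the hepatocyte markers, 30 of 32 tested were called lower in males by sex, so the covariate largely follows sex. The fit can therefore not tell the part of these markers from that of sex.

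The 200 bases before the annotated start of the 5 subunit genes called in any comparison are shown for the motifs of regulators of respiratory genes. They are RefSeq sequences of build GRCr8, which is not the build of the counts, written 5′ to 3′ in lower case, and capitals mark each complete match to 1 of the 7 motifs searched on both strands. The motifs were NRF1 (GCGCANGCG), GABP/ETS (CCGGAAG), YY1 (AAGATGGCG), ERR (TCAAGGTCA), CRE (TGACGTCA), the Sp1 GC box (GGGCGG) and the CCAAT box (CCAAT), and no 2 of them share letters of a match in these windows.
Sdha, chr1:30764353-30764552, plus strand: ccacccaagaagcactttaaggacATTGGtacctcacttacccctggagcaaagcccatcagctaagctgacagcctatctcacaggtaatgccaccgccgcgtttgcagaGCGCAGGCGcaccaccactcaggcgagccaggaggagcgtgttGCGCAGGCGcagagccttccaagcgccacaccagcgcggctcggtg
Ndufs1, chr9:72073606-72073805, minus strand: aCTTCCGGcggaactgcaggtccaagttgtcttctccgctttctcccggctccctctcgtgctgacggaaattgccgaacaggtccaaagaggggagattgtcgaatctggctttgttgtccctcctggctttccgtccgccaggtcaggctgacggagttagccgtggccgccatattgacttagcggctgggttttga
Ndufa10, chr9:100489265-100489464, minus strand: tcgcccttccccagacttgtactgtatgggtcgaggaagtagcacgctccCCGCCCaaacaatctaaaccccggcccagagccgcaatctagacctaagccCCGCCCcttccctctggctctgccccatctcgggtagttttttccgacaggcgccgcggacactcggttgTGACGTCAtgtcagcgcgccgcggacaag
Cox6a2, chr1:192219717-192219916, minus strand: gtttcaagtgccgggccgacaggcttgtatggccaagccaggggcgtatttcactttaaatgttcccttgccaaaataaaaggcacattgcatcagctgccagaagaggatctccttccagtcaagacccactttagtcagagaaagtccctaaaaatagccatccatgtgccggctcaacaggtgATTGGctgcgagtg
Ndufa4l2, chr7:65241969-65242168, plus strand: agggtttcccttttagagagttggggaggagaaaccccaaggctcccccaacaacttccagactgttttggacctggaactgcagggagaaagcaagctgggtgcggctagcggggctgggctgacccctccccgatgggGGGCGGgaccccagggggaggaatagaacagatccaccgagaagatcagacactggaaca
Sdha holds NRF1 matches that begin 89 and 46 bases before the start, and another that begins 1 base before it and runs past the end of the printed window. Ndufs1 holds a GABP/ETS match 199 bases before the start, Ndufa10 a CRE match 29 bases before it and GC boxes 150 and 99 bases before it. Cox6a2 held only a CCAAT box and Ndufa4l2 only a GC box here, and no match to the other motifs. The windows differ in composition, with 50% G and C in Cox6a2 and 62% in Ndufa10.

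Promoters of 300 bases (250 before and 50 after the start) were matched for 70 of the 82 symbols, 55 by symbol and 15 by synonym. The NRF1 motif was present in 17 of 70 (24.3%), against 5.79% of 33465 rat promoters. The GABP/ETS motif was present in 20 (28.6%), against 8.74%, and the YY1 motif in 9 (12.9%), against 1.73%. CRE was present in 4 (5.71%), against 1.83%, and ERR in 2 (2.86%), against 0.433%. The general motifs were closer to the background, with the GC box in 41.4% against 33.1% and the CCAAT box in 32.9% against 37.5%. By complex, NRF1 was present in 8 of 32 promoters of complex I and 6 of 15 of complex V, but in 1 of 13 of complex IV, and GABP/ETS in 7 of 32, 4 of 15 and 4 of 13. The 33465 promoters were not matched to the members by gene type, level of expression or base composition. A match is a stretch of letters and not a measured binding site.

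On the HFHS diet, comparing the sexes gave 2 subunits that were higher in males, where 1.99% of all tested genes were, and 1 that was lower in males, where 2.84% were. Cox6a2 was lower in Male HFHS by a log2 difference of -0.30 ± 0.06 (edgeR adjusted p = 0.00939), and every Male HFHS rat (917 to 1215 CPM) lay below every Female HFHS rat (1220 to 1467 CPM). The call held without any single rat, with adjusted p between 0.00739 and 0.0261, and was lost with the hepatocyte marker covariate (adjusted p = 0.0893). Over the 10 alternative settings the log2 difference lay between -0.31 and -0.27. The covariate raised the median standard error of a subunit in this comparison from 0.08 to 0.10. Of the hepatocyte markers, 28 of 32 were called lower in Male HFHS than in Female HFHS, so here too the covariate partly follows sex. Summed fast fibre genes were 115900 to 152200 CPM in Male HFHS and 143500 to 170500 CPM in Female HFHS, and their part in this result was not tested. Sdha was higher by 0.21 ± 0.06 (adjusted p = 0.0491). The third gene was Ndufa4l2, a paralogue of Ndufa4 that is known to be induced by low oxygen and to lower complex I activity. It ranged from 6.09 to 9.13 CPM with a median of 6.73 CPM in Male HFHS and from 3.79 to 6.398 CPM with a median of 4.79 CPM in Female HFHS, with overlap only through Female HFHS rat 201. Its log2 difference was 0.48 ± 0.14 (adjusted p = 0.0491). Summed endothelial markers were 452 to 549 CPM in Male HFHS and 351 to 442 CPM in Female HFHS, with 5 of 9 markers called higher in males, and their part in the result of Ndufa4l2 was not tested. In bulk muscle a different share of a cell type and a different level per cell cannot be told apart. The calls of Sdha and Ndufa4l2 were lost without 13 and 14 of the 23 single rats, with adjusted p of up to 0.101 and 0.129. The median log2 difference over the 83 subunits was -0.01.

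On chow the same comparison called 0 of 83 subunits by edgeR, where 1.72% of all tested genes were called, although 5 had an unadjusted p under 0.05. DESeq2 called 1, Sdha, and limma-voom called 0. The log2 difference of Sdha was 0.21 ± 0.06 (edgeR adjusted p = 0.141), that of Ndufs1 0.20 ± 0.07 (0.201) and that of Ndufa12 0.27 ± 0.09 (0.201). The values of Sdha and Ndufs1 were thus close to those on the HFHS diet, 0.21 and 0.16. Cox6a2 differed by -0.03 ± 0.07 (0.920) and Ndufa4l2 by 0.06 ± 0.15 (0.920) on chow.

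**Figure D3:**
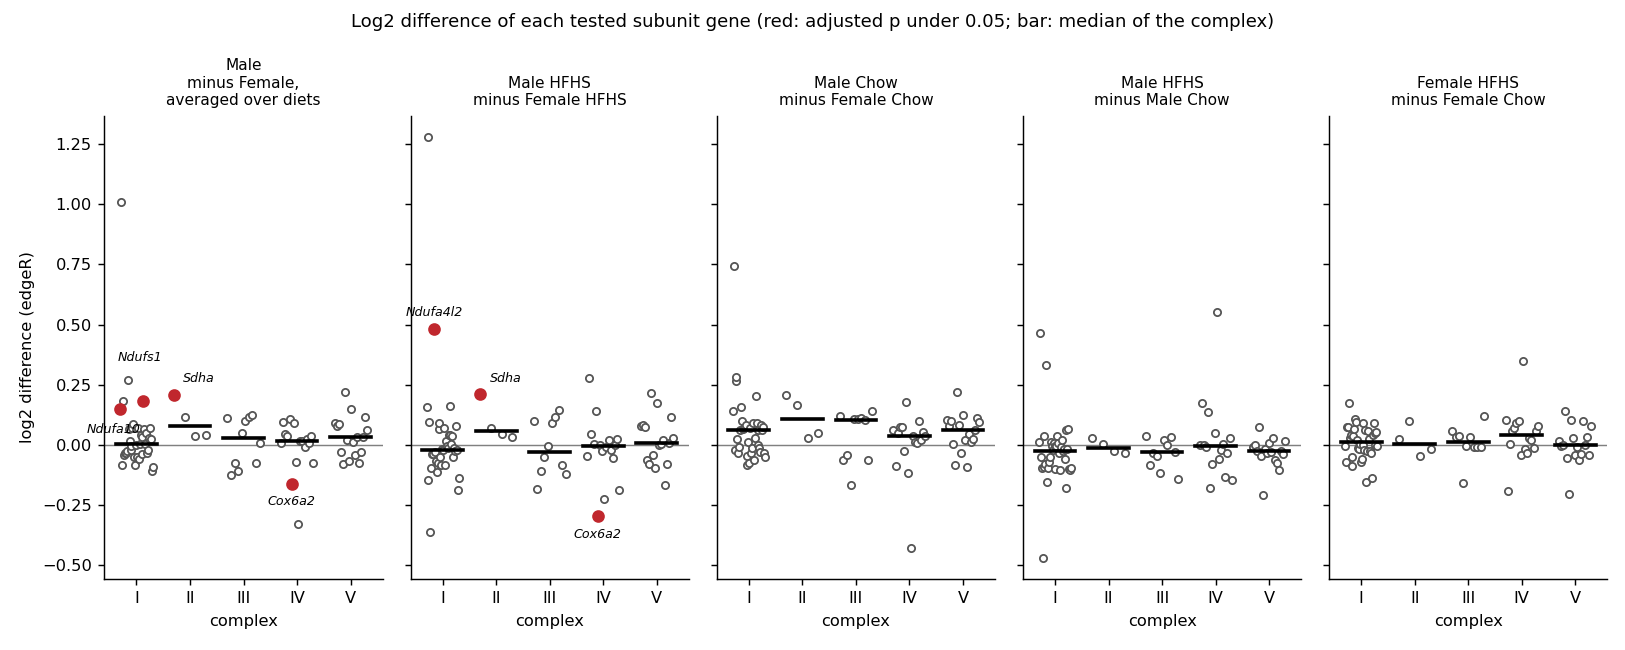
Log2 difference (y axis) of each of the 83 tested subunit genes by complex (x axis) in 5 comparisons, with the median of each complex as a bar and genes with an adjusted p under 0.05 in red. Called genes appear in the comparison by sex over both diets (3 higher and 1 lower in males) and in the one restricted to HFHS rats (2 higher, 1 lower), with none elsewhere, and the points at 1.01 and 1.28 in these comparisons are Ndufa10l1, whose intervals include 0.

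Comparing the HFHS diet with chow asked how the diet changes subunit expression within a sex. In males edgeR called 0 of 83 subunits, where 0.0224% of all tested genes were called, with 3 at an unadjusted p under 0.05, and in females it called 0, where 0.015% were, with 0 at an unadjusted p under 0.05. DESeq2 and limma-voom also called 0 in both. For 78 of the 83 subunits in each sex the 95% interval of the log2 difference lay within 0.5 of 0, so changes larger than that were outside the interval for these genes. The median log2 difference, HFHS minus chow, was -0.03 in males and 0.01 in females. Over all tested genes the medians were -0.01 in males and -0.0010 in females. By sign, 57 of 83 subunits were negative in males and 39 in females. Here too the signs are not independent, since the subunits' mean level varied between rats with an SD of 0.09. The smallest p in males was that of Cox6a2, with a log2 difference of -0.18 ± 0.06 (unadjusted p = 0.00974, edgeR adjusted p = 0.505), followed by Ndufa4l2 with 0.33 ± 0.14 (0.0264, adjusted 0.580). In females the corresponding values were 0.09 ± 0.07 (adjusted p = 0.813) for Cox6a2 and -0.09 ± 0.15 (0.939) for Ndufa4l2. The smallest p in females was that of Atp5d, the delta subunit of ATP synthase, with 0.14 ± 0.07 (adjusted p = 0.717).

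The interaction asked whether the change with diet differs between the sexes. It was called for 0 of 83 subunits by edgeR, DESeq2 and limma-voom, where 0% of all tested genes were called by edgeR, and 1 subunit had an unadjusted p under 0.05. That gene was Cox6a2, with a change in males minus change in females of -0.27 ± 0.09 (unadjusted p = 0.00782, adjusted p = 0.960). The intervals were wide: for 74 of 83 subunits they lay within 0.5 of 0, and their median standard error was 0.11 against 0.06 for the comparison by sex.

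Ratios of paired isoforms within a library do not depend on library scaling, but they can depend on the share of cell types in the tissue. They were taken as log2 ratios of counts plus 0.5 for 5 pairs in 5 comparisons, 25 tests in all, with exact permutation tests (100000 resamples for 12 males against 11 females), two-sided, and Benjamini-Hochberg adjustment over the 25, and 7 passed an adjusted p of 0.05. The sixth pair, Cox7a1 with Cox7a2, could not be tested, because Cox7a1 failed the filter on low counts. Summed endothelial markers were 452 to 549 CPM in Male HFHS, 402 to 508 CPM in Male Chow and 351 to 442 CPM in Female HFHS. Their part in the ratios was not tested. The ratio of Cox6a2 to Cox6a1 showed the clearest order. On the log2 scale it was 4.34 to 4.61 in 5 Male HFHS rats and 4.89 in Male HFHS rat 105, against 4.78 to 5.03 in Male Chow, 4.92 to 5.09 in Female HFHS and 4.81 to 5.18 in Female Chow. Of the Male HFHS rats, 5 lay below all other rats of the study and rat 105 lay among the Male Chow rats.

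The mean log2 ratio of Cox6a2 to Cox6a1 was 4.59 ± 0.18 in Male HFHS, against 5.02 ± 0.06 in Female HFHS (SD, n = 6 each), a difference of -0.43 (exact permutation p = 0.002165, adjusted p = 0.0271) with no overlap of the groups. The p is the smallest that 6 against 6 can give, and the call was lost without 7 of the 23 single rats (adjusted p = 0.0541 at most). Against Male Chow, at 4.90 ± 0.09, the Male HFHS ratio was lower, with a difference of -0.31 (exact permutation p = 0.00866, adjusted p = 0.0433). In females the difference by diet was 0.02 (exact permutation p = 0.775), with means of 5.02 ± 0.06 in Female HFHS and 5.005 ± 0.14 in Female Chow. On chow the sexes differed by -0.10 (exact permutation p = 0.177, adjusted p = 0.296). Over both diets they differed by -0.27 (permutation p = 0.00046, adjusted p = 0.0115), a value that pools the low Male HFHS rats with the Male Chow rats. Whether the change with diet differed between the sexes was not tested on the ratio, and the interaction of Cox6a2 in edgeR is given above. The members had values of opposite sign, since Cox6a2 had a log2 difference by diet in males of -0.18 and Cox6a1 one of 0.13 (edgeR adjusted p = 0.705), neither of which was called. Cox6a1 overlaps Gatc on the same strand, at 41.4 and 44.3 CPM on average, so reads of the 2 genes may be divided between them. The difference by diet in males lost its call without 12 of the 23 single rats, with adjusted p of up to 0.0722 and a difference between -0.37 and -0.26.

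Other pairs differed between the sexes on the HFHS diet. Ndufa4l2 relative to Ndufa4 had a mean log2 ratio of -5.97 ± 0.24 in Male HFHS and -6.50 ± 0.21 in Female HFHS, a difference of 0.53 (exact permutation p = 0.006494, adjusted p = 0.0406). Cox4i2, an isoform of Cox4i1 that is known from lung and from cells at low oxygen, had -7.66 ± 0.21 relative to Cox4i1 in Male HFHS and -7.99 ± 0.14 in Female HFHS, a difference of 0.33 (exact permutation p = 0.01299, adjusted p = 0.0464). Atp5g1 and Atp5g3 encode the same mature c subunit with different import sequences. Their log2 ratio was -0.36 ± 0.10 in Male HFHS and -0.14 ± 0.11 in Female HFHS, a difference of -0.22 (exact permutation p = 0.004329, adjusted p = 0.0361), and over both diets the sexes differed by -0.14 (permutation p = 0.0104, adjusted p = 0.0434). Cox8b, another muscle isoform of complex IV, had a log2 ratio to Cox8a of 3.63 ± 0.17 in Male HFHS and 3.84 ± 0.11 in Female HFHS. The difference of -0.21 did not pass (exact permutation p = 0.0368, adjusted p = 0.0920). Without single rats these calls were lost for 8 rats in the ratio of Ndufa4l2, for 15 in that of Cox4i2, and for 7 on the HFHS diet and 16 over both diets in that of Atp5g1. The call of Cox4i2 to Cox4i1 was also lost in each of 3 other settings (adjusted p of 0.0541 to 0.0794), and that of Ndufa4l2 to Ndufa4 without the 3 females whose labels conflict (0.0842). On chow the 5 pairs had differences by sex between -0.15 and 0.06, none of which passed. By diet, HFHS minus chow, the ratio of Atp5g1 to Atp5g3 differed by 0.15 in females and -0.03 in males. That of Cox4i2 to Cox4i1 differed by -0.29 in females and 0.18 in males, and that of Ndufa4l2 to Ndufa4 by -0.05 and 0.42. None of these differences by diet passed.

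**Figure D4:**
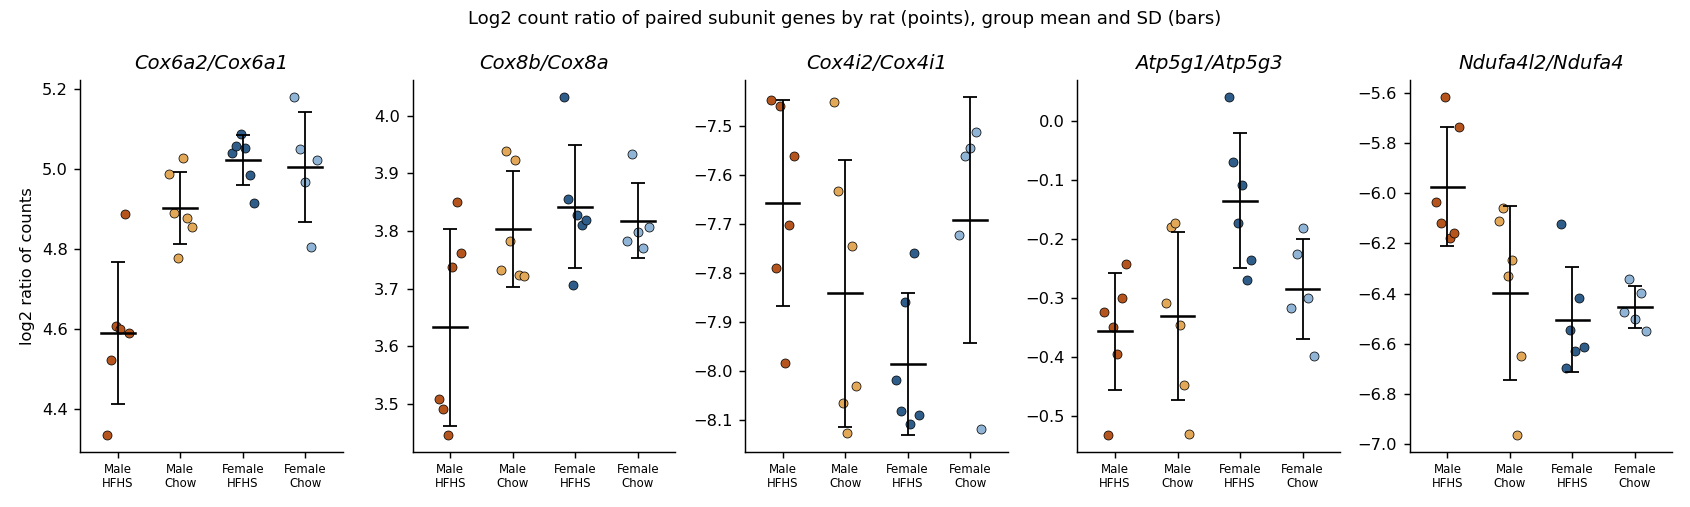
Log2 ratio of the counts (y axis) of 5 isoform pairs in each rat by group (x axis), with the group mean and SD as bars. For Cox6a2/Cox6a1, 5 of 6 Male HFHS rats lie below all other rats, and the means are 4.59 in Male HFHS, 4.90 in Male Chow, 5.02 in Female HFHS and 5.005 in Female Chow.

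A few members had almost no counts. Cox7a1, known as the muscle form of subunit VIIa, had 25 counts in all 23 libraries, 16 in Male HFHS, 8 in Male Chow, 1 in Female HFHS and 0 in Female Chow, and Ndufa1, a small subunit of complex I, had 3. Both failed the filter on low counts, although Cox7a1 was called higher in males by sex where the filter was a mean count above 0.1, and Cox7a2 was counted at 252 CPM. Atp5f1, the b subunit of the ATP synthase stalk, had 0.97 CPM and the entry of Ndufa13 on chromosome 7, 429 bases long, had 1.49 CPM, while an entry described as similar to subunit 13, LOC100911483 on chromosome 16, had 249 CPM. Why these entries are low was not tested, and their gene models and the handling of reads with several matches could not be checked. Low counts here therefore do not show that the muscle lacks these transcripts. The second positions of Cox6b1 (261 bases on chromosome 2), Uqcrb (475 bases on chromosome 1) and Ndufv3 (327 bases on chromosome 13) are short and had 114, 87.6 and 44.9 CPM, so counts of these symbols may be divided between near-identical copies. Cox6b2, a testis form, had 0.25 CPM.

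Ndufa10l1, an entry of 1929 bases on chromosome 6 named as like Ndufa10, was chosen for its values. It was the subunit gene with the widest spread within groups, with an SD of the log2 level of 1.65. In Male HFHS the values were 1.60, 14.3, 16.0, 0.95, 16.8 and 1.89 CPM, and in Male Chow 15.0, 2.21, 1.51, 1.92, 15.5 and 1.43 CPM. In Female HFHS they were 0.90, 1.59, 1.68, 1.89, 13.6 and 1.41 CPM, and in Female Chow 0.77, 1.20, 13.96, 1.80 and 0.77 CPM. No rat lay between 2.21 and 13.6 CPM. The 7 rats above this gap were 3 Male HFHS, 2 Male Chow, 1 Female HFHS and 1 Female Chow, and 16 lay below it. Its log2 difference by sex, 1.01 with a 95% interval of -0.48 to 2.50, was not called (edgeR adjusted p = 0.419).

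Of the genes that assemble or regulate the complexes, some were called by sex, where 3.8% of all tested genes were higher and 5.17% lower in males. The counts were 0 of 16 tested complex I assembly factors, 0 of 3 of complex II, 2 of 6 of complex III, 2 of 20 of complex IV and 1 of 4 of complex V, lists too small to be read against those shares. In complex III, Uqcc1 was higher in males (log2 difference 0.15 ± 0.04, edgeR adjusted p = 0.0157) and its partner Uqcc2, with which it helps cytochrome b synthesis, was lower (-0.23 ± 0.05, adjusted p = 0.00761). In complex IV, Coa5 was higher (0.21 ± 0.06, adjusted p = 0.0312) and Cox19 lower (-0.20 ± 0.05, adjusted p = 0.0165). Atpaf1, a chaperone of the F1 beta subunit, was higher in males (0.24 ± 0.06, adjusted p = 0.0182), and on the HFHS diet by 0.33 ± 0.09 (adjusted p = 0.0263). Of 14 carriers and supercomplex factors 1 was called by sex, Pdss2, an enzyme of the ubiquinone side chain, at 0.13 ± 0.04 (adjusted p = 0.0426). Of 18 regulators of mitochondrial biogenesis 1 was called by sex, again a small count beside the shares of all genes. This was Ppard, a nuclear receptor for fatty acids, which was lower in males by sex (-0.40 ± 0.08, adjusted p = 0.00355) and on the HFHS diet (-0.60 ± 0.12, adjusted p = 0.00578). The coactivator gene Ppargc1a differed by 0.01 ± 0.08 by sex (adjusted p = 0.971). No gene of these lists was called by diet in either sex or for the interaction. Reads of 14 subunit genes may also include those of an overlapping entry, among them Uqcrc2 with Pdzd9 and Ndufa4 with Phf14, since how strand was used in counting is not given in the sources used here.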

How the data were processed

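Poly-A RNA of gastrocnemius was sequenced from 23 rats, 1 library each. The authors used fastp for trimming, STAR 2.7.6a with the rn6 genome for alignment, and SeqMonk 1.48.1 for counting reads over merged exons. The deposited values are raw counts per gene, with no normalization. The annotation release is not given in the sources used here. The 16 entries without a gene name (6.57e-05% to 0.000294% of counts) were left out. No pair of libraries held identical values, and the labels give no batch. Each library is a separate rat, so p-values measure the spread between rats.

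Counts were fitted in R 4.3.3 with edgeR 4.0.16 (filterByExpr, TMM, 1 mean per group, robust quasi-likelihood), with limma 3.58.1 and DESeq2 1.42.0 as alternatives. CPM are TMM-scaled. Standard errors come from the F statistic, and intervals use 19 residual degrees of freedom. The procedure was tested on simulated data with larger differences than those of the called subunits. That test therefore does not show how well differences of their size are found.

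Named are all called members, in each complex the 3 with the highest mean CPM and the 2 with the smallest p by sex, every isoform pair, members failing the filter, and up to 4 called genes of each assembly or regulator list, while marker lists are given as sums. An item that the rule names is not reported here. Others named were chosen after their values were seen. Members and lists were chosen with earlier results of these data known. Of the listed symbols, 171 were found by symbol, 1 by synonym and 26 not. No set was tested.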

Additional observations from a re-analysis of the deposited data

Results flagged for a closer look

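Of 60 groups looked at over 15 quantities (the levels of the called subunits, the sums of the complexes and the isoform ratios), 1 had a rat far from the others, where chance alone flags about 1 in 20 groups. In Female Chow, rat 213 had the highest log2 ratio of Cox8b to Cox8a, 3.93, while the next rat had 3.81 and the lowest 3.77. The gap took up 0.774 of the range of the group.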

How the results depend on the processing

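No called difference changed sign under any alternative. By sex over both diets, edgeR called 4 subunits, and the alternatives gave 3 to 6 except the hepatocyte marker covariate, which gave 0; without single rats the number was 3 to 7. On the HFHS diet, 3 were called, against 1 with the filter at a mean count above 0.1 (Sdha and Ndufa4l2 at adjusted p of 0.0519 and 0.0526), 1 with title number as replicate block, 0 with the hepatocyte marker covariate, and 1 to 4 without single rats. Where 3 were called by limma-voom and without the conflicting rats, Ndufa4l2 was not among them (adjusted p = 0.0650 and 0.0659), while Uqcr10 was called by limma-voom and Ndufa10 without those rats. On chow DESeq2 called 1 and all others 0. By diet and for the interaction each setting called 0. Of the 25 isoform tests 7 passed, against 1 to 8 without single rats, partly because fewer rats raise the smallest p, 7 (without Cox4i2 to Cox4i1 on the HFHS diet) with the diets of the titles, 5 without the conflicting rats and 5 without rats 111 and 205. Of the ratios that passed, that of Cox6a2 to Cox6a1 by sex did so without any single rat, with adjusted p of up to 0.0425.

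The title numbers are not stated to pair rats. Deviations of same-numbered rats correlated at -0.03 on average over 32 pairs, against 0.01 over 166 others. With the replicate block by sex, 3 subunits were called, and Cox6a2 had a log2 difference of -0.16 (adjusted p = 0.0564). The diets of the titles moved the median log2 difference of the subunits by diet in females to -0.08, against 0.01. Leaving out rats 111 and 205, chosen after seeing the data, ended the call of the Cox6a2 to Cox6a1 ratio by diet in males (adjusted p = 0.0618) and that of Cox4i2 to Cox4i1 on the HFHS diet (0.0541), which was also lost with the diets of the titles (0.0758) and without the conflicting rats (0.0794). Over all genes, those called on the HFHS diet numbered 645, against 1013 with DESeq2, 1355 with the diets of the titles, 378 with the replicate block and 123 with the hepatocyte marker covariate, and against 379 to 769 without single rats (379, 393, 407 and 420 without Female HFHS 210 and Male HFHS 103, 101 and 102). The covariate gave 42 against 1199 by sex and 12 against 230 on chow. The filter at 1 CPM gave 150 on chow. By diet, DESeq2 and limma-voom called 24 and 17 genes in males, against 3, and 6 and 9 in females, against 2, where the other settings called 0 to 3. Without single rats the number was 0 to 9 in males (9 without Male Chow 112, 6 without Male HFHS 102) and 1 to 3 in females. For the interaction DESeq2 called 1 and the diets of the titles 5, against 0. The median standard error of a subunit, 0.06 by sex and 0.08 on each diet on the log2 scale, limits the differences that could be resolved.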
